A study of Mus musculus with 4 samples.

Results

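The genes examined here act in spermatogonia that leave the stem cell pool and commit to meiosis, and some also act in other cells or stages. In the testes of adult mice lacking AZIN2, 7 were measured: Kit, Stra8, Dmrt1, Sohlh1, Sohlh2, Dazl and Dnmt3b. They were taken by symbol, as all probe sets that the annotation of the Affymetrix Mouse Gene 1.1 ST array pairs with these names, and form 7 of the 18821 genes with a value of their own. Each has 1 probe set, and 0 of the 7 probe sets hold the same values as another. Total RNA from whole testes was hybridized to 4 arrays, 2 from Azin2 KO mice and 2 from Azin2 WT mice, each carrying a pool of 3. Both copies of Azin2 are disrupted by a β-Geo cassette in the KO animals, a hypomorphic line kept on a mixed C57BL/6 background that retains some of the mRNA, and both are intact in the WT animals. Pools were counted as samples, so that the errors below measure the spread between pools, not between single mice.

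In the mouse, a pulse of retinoic acid along the seminiferous tubule drives undifferentiated spermatogonia into the differentiating state, from which a series of divisions leads to the preleptotene spermatocyte and a further pulse to meiosis. KIT, the receptor of the Sertoli cell factor KITL, is the surface marker of the differentiating state, and STRA8 is the retinoic acid target needed for meiotic entry. SOHLH1 and SOHLH2, a pair of basic helix-loop-helix factors, and DMRT1, a doublesex-related factor, act in the nucleus of spermatogonia. DAZL binds germ cell mRNAs, and DNMT3B sets DNA methylation de novo. Since whole testes were measured, fewer cells of a type and less RNA per cell cannot be told apart.

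The promoters of Stra8 and Sohlh1 are shown because they hold recognition letters of the factors that these genes encode or answer to. They are the 250 bases before the annotated start in the table used (RefSeq, GRCm38.p6), written 5′ to 3′ on the strand of the gene, at chr6:34920698-34920947 for Stra8 and at chr2:25847249-25847498, on the minus strand, for Sohlh1. The start used for Stra8 lies inside the outermost bounds of the gene, and that of Sohlh1 at its bound. In Stra8 the capitals mark AGGTCA, the half-site of retinoic acid receptors, and ACANTGT, the core of the DMRT motif, and in Sohlh1 they mark CACGTG, an E-box of the kind that helix-loop-helix factors bind.
Stra8: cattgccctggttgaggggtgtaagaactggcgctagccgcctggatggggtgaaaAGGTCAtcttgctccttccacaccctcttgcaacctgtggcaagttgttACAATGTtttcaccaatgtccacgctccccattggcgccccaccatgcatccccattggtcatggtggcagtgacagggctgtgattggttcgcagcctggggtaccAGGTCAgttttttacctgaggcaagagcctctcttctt
Sohlh1: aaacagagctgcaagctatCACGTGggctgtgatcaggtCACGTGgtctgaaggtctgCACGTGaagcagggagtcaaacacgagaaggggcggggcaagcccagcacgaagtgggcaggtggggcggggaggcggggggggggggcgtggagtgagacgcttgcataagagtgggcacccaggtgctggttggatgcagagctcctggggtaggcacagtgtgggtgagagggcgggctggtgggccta
On either strand, AGGTCA began 194 and 38 bases before the start of Stra8, and ACANTGT 145 bases before it. CACGTG occurred 3 times before Sohlh1, at 231, 211 and 192 bases. The table of promoters matched 6 of the 7 genes, all but Dmrt1. AGGTCA and ACANTGT were each found in 2 of these 6, Stra8 and Sohlh1, and in 13.8% and 6.55% of the same window of 27025 genes. CACGTG was found in 1 of the 6 and in 6.05% of genes, and the looser E-box CANNTG, which includes CACGTG, in 4 of the 6 and in 66.0% of genes. These matches are letters in a window and not measured binding.

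The arrays are described first by the targeted gene. The log2 signal of Azin2 was 7.36 and 7.14 in KO and 10.16 and 9.998 in WT pools, so that the labels and the targeted gene went the same way (adjusted p = 0.0250 from limma). Array medians ranged from 6.08 to 6.11. As markers of germ cells, the RNA helicase gene Ddx4 lay between 11.51 and 11.58 and the protamine gene Prm1 between 12.33 and 12.40 in all arrays. Most Leydig cell and macrophage markers were lowest in KO replicate 1, and most Sertoli cell markers in WT replicate 2, as given below beside the genes they touch.

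None of the 7 genes differed between KO and WT testes by limma, fitted over the 23099 probe sets paired with a gene, at an adjusted p under 0.05. The count at an unadjusted p under 0.05 was 0 as well, both by limma and by the ordinary equal-variance test, where 4.1% of all probe sets tested had such a p by limma. No gene reached a fold of 1.5 at that p, against a background of 0.0823%. At an adjusted p under 0.05 the background was 0.00433%, which is Azin2 alone. The 7 log2 differences, KO minus WT, ran from -0.16 for Kit to 0.13 for Dmrt1, 4 above and 3 below 0, where 56.9% of all probe sets lay above 0. Their median was 0.026, beside a median of 0.011 over all genes, and it was -0.031 with KO replicate 1 left out and 0.11 with the other KO pool left out. For 6 of the 7 genes, all but Kit, the 95% interval of the difference lay within a fold of 1.5 in either direction, which held for 97.8% of all probe sets. In 3 of the 7 genes the 2 genotypes did not overlap, and this held for 32.5% of all probe sets, so that it is common with 2 pools a group.

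**Figure D1:**
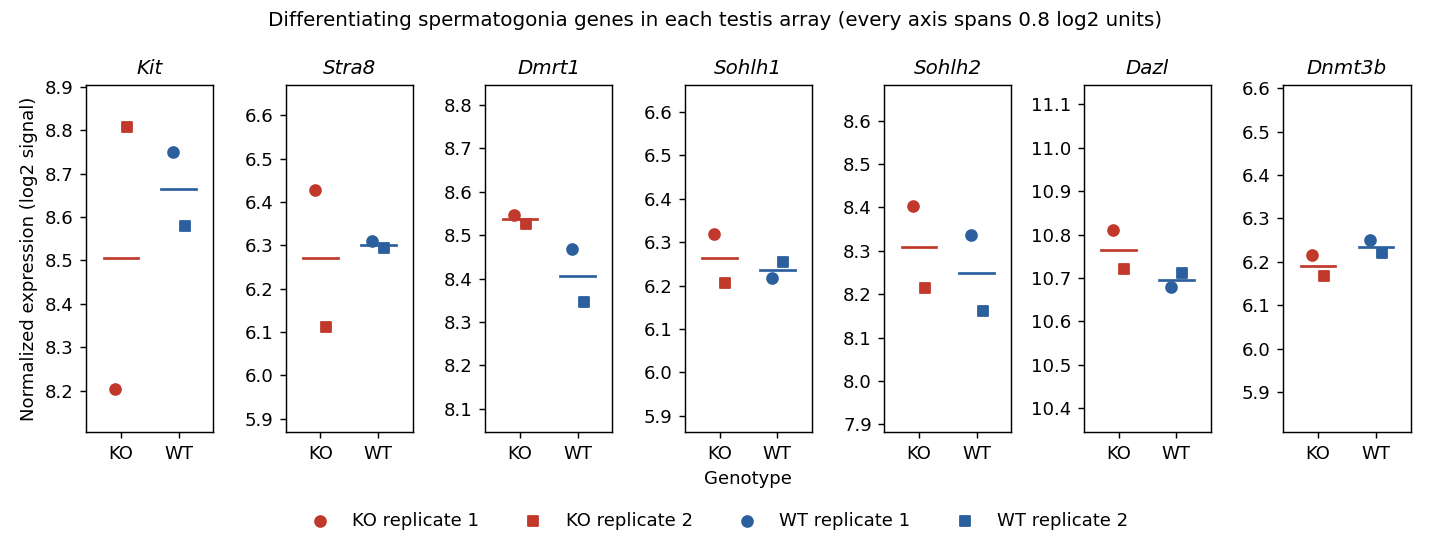
Normalized expression (vertical axes, log2 signal) of the 7 genes in the 4 arrays, KO in red and WT in blue, with circles for replicate 1, squares for replicate 2 and bars for the means of 2 arrays. Every axis spans the same width, and the widest gap within a genotype is that between the KO pools of Kit, at 8.20 and 8.81.

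Kit (chromosome 5, 75574987 to 75656722 in GRCm38.p6), the receptor tyrosine kinase that defines the differentiating state, varied more than the other 6 genes. Its log2 signal was 8.20 and 8.81 in the KO pools and 8.75 and 8.58 in the WT pools. Both WT pools lay between the KO pools, so that the groups overlapped. The means were 8.504 ± 0.43 (SD, n = 2 pools) in KO and 8.67 ± 0.12 (SD, n = 2) in WT testes, a log2 difference of -0.16 (standard error 0.20, adjusted p = 0.9995 from limma). The 95% interval ran from -0.69 to 0.37, that is, from 0.621 to 1.29 times the WT signal, so that a fall past a fold of 1.5 was within it. The SD of Kit within genotypes, 0.314, was exceeded in 1.04% of all probe sets. With KO replicate 1 left out the difference was 0.14, and with the other KO pool left out it was -0.46. Each of these values rests on 1 KO pool, so that the spread between KO pools is not measured in it.

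KO replicate 1, the pool with the lowest Kit signal, was also the array in which each of the 6 measured Leydig cell markers, of 8 listed, was lowest. Over all genes, 22.1% were lowest in that array. Leydig cells, the source of testosterone, are known to carry KIT as well. The mean of the 6 markers, each centred over the 4 arrays on its own mean, came to -0.19 in KO replicate 1 and 0.12 in the other KO pool, against 0.094 and -0.022 for WT. The centred values of Kit in the same order were -0.38, 0.22, 0.17 and -0.0052, and both sets were low in the same pool. Summed on the linear scale, the markers gave signals of 8618 and 9796 in KO and 9952 and 9069 in WT pools. Hsd3b1, a steroid dehydrogenase, varied most, from 8.74 in KO replicate 1 to 9.42 in KO replicate 2, with 9.10 and 9.34 in the WT pools. Cyp17a1, an enzyme of androgen synthesis, varied least, with all 4 pools between 12.11 and 12.20, and weighed most in the sums. Without KO replicate 1, the difference turned from -0.16 to 0.14 for Kit. Of the 6 markers, 5 then lay above 0, against 0 of 6 with all arrays. As that array was the lowest for Kit and for each of the 6, leaving it out could only raise these differences. Macrophage markers were lowest in that array in 5 of 7 as well, with a summed signal of 1335 there and 1602 to 1967 in the others, KO replicate 2 at 1619. Of these markers, Lyz2 and Mrc1 had the highest signals and weighed most in the sum, and Mrc1 was lowest in WT replicate 1. Mast cells also carry KIT, and their 7 markers summed to between 563 and 592 in all arrays. Hdc, the histidine decarboxylase gene, at log2 signals of 8.75 to 8.85, made up most of that sum. The other 6, among them Mcpt4 and Fcer1a with differences of -0.082 and 0.064, lay between 3.90 and 4.64, well below the array medians, so that the list says little about mast cells. The part of these cells in the Kit signal was not tested.

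**Figure D2:**
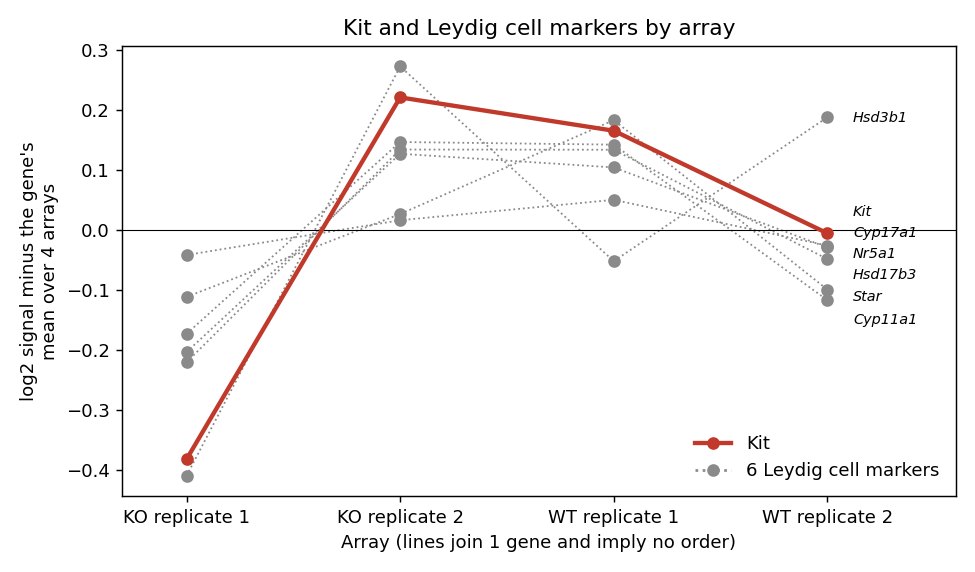
Log2 signal minus the mean of the gene over 4 arrays (vertical axis) for Kit, in red, and for 6 Leydig cell markers, in grey, in each array (horizontal axis), with lines joining the values of 1 gene. Kit at -0.38 and all 6 markers are lowest in KO replicate 1.

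The ligand and the signalling partners of KIT were taken from a list of 15 genes, of which 14 had a value. None of them passed the test in either direction, also not at an unadjusted p under 0.05. Their median log2 difference was -0.029, with 10 of 14 below 0, and -0.0076, with 7 of 14 below 0, without KO replicate 1. Kitl, the ligand made by Sertoli cells, had log2 signals of 8.26 and 8.24 in KO and 8.28 and 8.32 in WT pools, a difference of -0.058 (95% interval -0.18 to 0.068). The KO pools of Kitl lay just below the WT pools. Grb7, an adaptor of receptor tyrosine kinases, was at 6.1 and 5.85 in KO and 5.82 and 5.55 in WT pools, a difference of 0.29 that did not pass the test (unadjusted p = 0.0710 from limma). Grb2, the adaptor that links receptors to Ras, had a difference of -0.15, and the kinase gene Mtor one of -0.10. Ptpn11, the phosphatase SHP2, was the other high one, at 0.054.

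Stra8 (chromosome 6, 34920163 to 34939344), whose promoter with its AGGTCA letters is shown above, was at 6.43 and 6.11 in the KO pools and at 6.31 and 6.29 in the WT pools. The WT pools again lay between the KO pools. The log2 difference was -0.032 (standard error 0.11, 95% interval -0.32 to 0.25, adjusted p = 0.9995 from limma). The pools of WT differed by 0.017 and those of KO by 0.32. In KO replicate 1, where Kit was lowest, Stra8 was at its highest. With KO replicate 1 left out the difference was -0.19, and with the other KO pool left out 0.13, each resting on 1 KO pool. The signals of Stra8, like those of Sohlh1 and Dnmt3b, were near the array medians, where background hybridization takes a larger share of the signal, which can understate a difference in mRNA.

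Of 21 genes that make, break down, bind or sense retinoic acid, 20 had a value, and none passed the test, also not at an unadjusted p under 0.05. Their median log2 difference was 0.022, with 12 above 0, and -0.0092, with 7 above 0, without WT replicate 2. The receptor gene Rarg, which acts in spermatogonia, was between 5.92 and 5.98 in all arrays. Aldh1a2, which makes retinoic acid in germ cells, was at 10.43 and 10.45 in KO and 10.46 and 10.34 in WT pools, and the groups overlapped. Cyp26b1, which breaks it down, had a difference of 0.031. Rxra, a partner of the retinoic acid receptors, and Stra6, a retinol importer, had the highest differences, 0.22 and 0.18. The low pool was WT replicate 2 for both, at 8.003 for Rxra and 7.53 for Stra6, and this array was the lowest for 11 of the 20 genes, against 30.1% of all genes. Without it, the difference was 0.046 for Rxra and -0.0066 for Stra6. Rdh10, which oxidizes retinol, and Cyp26a1 had the lowest, -0.095 and -0.053.

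Dmrt1 (chromosome 19, 25505618 to 25604328), which holds spermatogonia in mitosis and represses Stra8 in them, had log2 signals of 8.55 and 8.53 in KO and 8.47 and 8.35 in WT pools. Both KO pools lay above both WT pools, as in 20.1% of all probe sets. The means were 8.54 ± 0.015 (SD, n = 2 pools) and 8.41 ± 0.088 (SD, n = 2), a log2 difference of 0.13 (standard error 0.062, 95% interval -0.030 to 0.29). Its unadjusted p of 0.0906 from limma was the smallest of the 7 genes, and its adjusted p was 0.9995. The difference ranged from 0.068 without WT replicate 2 to 0.19 without WT replicate 1, each resting on 1 WT pool. DMRT1 is also a Sertoli cell protein. The pool with the lowest Dmrt1 signal, WT replicate 2, was the lowest in 10 of 11 Sertoli cell markers, of 12 listed, against 30.1% of all genes. The centred mean of these markers was -0.10 in that pool, 0.022 in the other WT pool, and -0.0035 and 0.086 for KO. Centred values of Dmrt1 in the same order were -0.13, -0.0028, 0.076 and 0.054. Summed signals of the markers were 5696 and 5983 in KO and 5922 and 5438 in WT pools. Sertoli cell markers with the highest differences were Amh, the anti-Müllerian hormone gene (0.21), and Fshr, the receptor of follicle-stimulating hormone (0.15). Without KO replicate 2 these were 0.044 and 0.011, and without KO replicate 1 they were 0.38 and 0.29. Kitl and Clu had the lowest, -0.058 and 0.011. The part of Sertoli cells in the Dmrt1 signal was not tested.

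The other 8 genes of the DMRT family were all measured, and none passed the test, also not at an unadjusted p under 0.05. All 8 had differences above 0, from 0.031 for Dmrta2 to 0.14 for Dmrt2, with a median of 0.060 (0.036 to 0.10 when each array was left out), where 56.6% of all genes lay above 0. Dmrt2 and Dmrt3 lay below the array medians in all arrays. The groups of Dmrt2 overlapped, and its difference was -0.055 without KO replicate 1. The count above 0 was also 8 of 8 after quantile normalization, where 56.3% of all genes lay above 0. With each array centred on its median it was 8 of 8, and 62.2% of all genes lay above 0. Centring raised every difference, so that it could not lower the count. Without KO replicate 1 or without WT replicate 2 the count was 7 of 8. Dmrtb1, whose product moves spermatogonia from mitosis to meiosis, was at 10.26 and 10.23 in KO and 10.22 and 10.09 in WT pools. As for Dmrt1, the KO pools lay above the WT pools and WT replicate 2 was the lowest.

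Sohlh1 (chromosome 2, 25842995 to 25847248), the gene with the E-boxes shown above, was at 6.32 and 6.21 in KO and 6.22 and 6.26 in WT pools. Its WT pools lay between the KO pools, with a log2 difference of 0.026 (standard error 0.061, 95% interval -0.13 to 0.18, adjusted p = 0.9995 from limma). Sohlh2 (chromosome 3, 55182044 to 55209957), its partner in activating Kit, was at 8.40 and 8.21 in KO and 8.34 and 8.16 in WT pools. For Sohlh2 the 2 pools of a genotype differed by 0.19 and 0.18, more than the genotypes, with a log2 difference of 0.060 (standard error 0.095, 95% interval -0.18 to 0.30, adjusted p = 0.9995 from limma). The sign of both differences turned when KO replicate 1 was left out, to -0.031 for Sohlh1 and -0.035 for Sohlh2. Of 11 helix-loop-helix partners, ID inhibitors and other genes of this network, all were measured and none passed the test, also not at an unadjusted p under 0.05. Their median was 0.0022, and -0.010 without KO replicate 2. Tcf3, which encodes the E proteins that pair with such factors, was at 7.65 in both KO pools and at 7.59 and 7.57 in the WT pools, a difference of 0.077. Lhx8, a homeobox gene, had the lowest difference, -0.046, at signals from 5.20 to 5.28. Figla, a helix-loop-helix gene of the oocyte, was at -0.023 and Nobox, a homeobox gene of the oocyte, at 0.046.

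Dazl (chromosome 17, 50279393 to 50293620), needed from the spermatogonium onwards, was at 10.81 and 10.72 in KO and 10.68 and 10.71 in WT pools. The KO pools lay above the WT pools, by as little as 0.01 between KO replicate 2 and WT replicate 2. The means were 10.76 ± 0.063 (SD, n = 2 pools) in KO and 10.70 ± 0.021 (SD, n = 2) in WT testes, a log2 difference of 0.070 (standard error 0.056, 95% interval -0.074 to 0.21, adjusted p = 0.9995 from limma). That interval runs from 0.950 to 1.16 times the WT signal. Among 9 measured genes, of 10 listed, of its family and of other germ cell RNA-binding proteins, 0 were called at an adjusted p under 0.05 and 1, Tex19.1, had an unadjusted p under 0.05 from limma. Over all probe sets, 4.1% had such a p. Tex19.1, which guards germ cells against retrotransposons, was at 5.92 and 5.89 in KO and 5.66 and 5.72 in WT pools, a difference of 0.21 (unadjusted p = 0.00887, adjusted p = 0.9995 from limma). All these signals were below the array medians. Boll, the relative of Dazl that acts in meiosis, differed by -0.0062, and its 4 arrays lay between 11.20 and 11.24. The lowest difference was that of Nanos3, -0.046.

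Dnmt3b (chromosome 2, 153649411 to 153687730) was at 6.22 and 6.17 in KO and 6.25 and 6.22 in WT pools. The signal was lower in each KO pool than in either WT pool, as in 12.3% of all probe sets. The log2 difference was -0.044 (standard error 0.051, 95% interval -0.17 to 0.086, adjusted p = 0.9995 from limma). Its SD within genotypes, 0.028, was exceeded in 81.9% of probe sets, so that Dnmt3b was the steadiest of the 7 genes. Of 9 other genes of DNA methylation and demethylation, 0 were called at an adjusted p under 0.05 and 1, Tet3, had an unadjusted p under 0.05, as did 4.1% of all probe sets. Tet3, which oxidizes methylated cytosine, was at 6.56 and 6.59 in KO and 6.32 and 6.42 in WT pools, a difference of 0.20 (unadjusted p = 0.0169, adjusted p = 0.9995 from limma). Its relative Tet2 had the lowest difference, -0.16. Dnmt3a, the other active de novo enzyme, was at 7.24 and 7.06 in KO and 7.25 and 7.20 in WT pools, with overlapping groups.

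**Figure D3:**
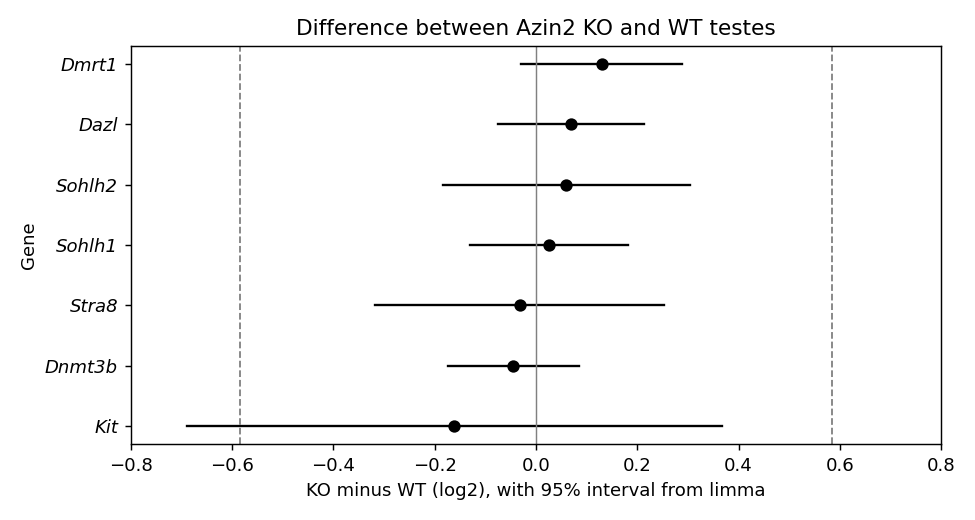
KO minus WT on the log2 scale (horizontal axis) for the 7 genes, with points for the estimates, lines for 95% intervals from limma and dashed lines at a fold of 1.5. All 7 intervals include 0, and that of Kit, from -0.69 to 0.37, alone reaches past a dashed line.

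The 7 genes did not move together across the arrays. In KO replicate 1, 5 of them, Stra8, Dmrt1, Sohlh1, Sohlh2 and Dazl, had their highest signal, where 27.9% of all genes had theirs, and Kit had its lowest. In KO replicate 2, Kit was at its highest and Stra8, Sohlh1 and Dnmt3b at their lowest. The average of the 7, each centred on its own mean, stayed within 0.04 of 0, with 0.016 and -0.0091 for the KO pools and 0.029 and -0.036 for the WT pools. Kit, at -0.38 and 0.22 in the KO pools, went against most of the others there, so that the average is flatter than its members. Among the 9406 genes above the median level, Dab2ip, Spag1 and Pfdn1 came nearest to this average, with root mean square distances over the 4 arrays of 0.0036, 0.0043 and 0.0047. The average is itself nearly flat, with a root mean square of 0.025, so that a gene that varies little lies near it whatever its shape. Nearer to the average than the median distance of the 7 genes themselves, 0.065, lay 5489 genes. That count therefore says little about likeness of profile.

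A further list for the differentiating stages also held genes of other stages, such as Lin28a and Prdm9. Of its 11 genes, 10 had a value. None was called at an adjusted p under 0.05, and 2 had an unadjusted p under 0.05, both higher in KO, where 2.14% of all probe sets were (1.96% were lower). Lin28a, an RNA-binding protein of progenitor spermatogonia, was at 6.77 and 6.73 in KO and 6.55 and 6.49 in WT pools, a difference of 0.23 (unadjusted p = 0.00703, adjusted p = 0.9995 from limma). Averaged over all probe sets of Lin28a, the difference was 0.18. Sox3, a transcription factor of committed spermatogonia, was at 6.62 and 6.53 in KO and 6.39 in both WT pools, a difference of 0.18 (unadjusted p = 0.0220, adjusted p = 0.9995 from limma). Both genes lay higher in both KO pools. The lowest in this list were Prdm9, the methyltransferase that places meiotic breaks, and the proliferation marker Mki67, at -0.079 and -0.023. The median of the 10 was 0.079, and 0.0089 without WT replicate 2, the lowest array for 7 of the 10 (30.1% of all genes), and 0.15 without WT replicate 1.

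The stages before and after were measured by 14 markers of undifferentiated spermatogonia and 14 of 15 markers of early meiosis. Their medians were 0.045 and 0.024, beside 0.026 for the 7 genes, and none was called at an adjusted p under 0.05. The median of the undifferentiated markers was -0.010 without WT replicate 2, the lowest array for 7 of the 14 (30.1% of all genes), and 0.11 without WT replicate 1. That of the early meiosis markers was 0.0094 with KO replicate 1 left out and 0.041 with KO replicate 2 left out. Among the undifferentiated markers, Gfra1, the receptor of the niche factor GDNF, was at 6.95 and 6.87 in KO and 6.91 and 6.83 in WT pools, and the groups overlapped. Pou5f1, a pluripotency gene, was at 5.81 and 5.71 in KO and 5.97 and 6.22 in WT pools, a difference of -0.34 (unadjusted p = 0.0174, adjusted p = 0.9995 from limma), all but 1 of these signals below the array medians. Lhx1 and Foxo1, transcription factors of stem cell maintenance, had the highest differences, both 0.14, and Bcl6b the other low one, -0.12. In early meiosis, Sycp3, which encodes a protein of the chromosome axis, was at 11.50 and 11.41 in KO and 11.35 and 11.40 in WT pools, a difference of 0.084. Tex101, a germ cell surface protein, was at 10.82 in both KO pools and at 10.71 and 10.61 in WT pools, a difference of 0.17 (unadjusted p = 0.0326, adjusted p = 0.9995 from limma). The low end of that list held Prdm9 and Rec8, the meiotic cohesin gene, at -0.041. The 8 measured spermatid markers lay between -0.053 for Prm1 and 0.016 for Acrv1, an acrosomal protein gene. In all, of the 143 genes measured in the 14 other lists, 0 were called at an adjusted p under 0.05 by limma, and 0 by the ordinary equal-variance test. At an unadjusted p under 0.05, 5 were higher and 2 lower in KO testes, where 4.1% of all probe sets had such a p. The lower ones were Pou5f1 and Lyz2, a macrophage lysozyme gene, at -0.56. Cx3cr1, a chemokine receptor gene, had the highest difference of the macrophage markers, 0.068.

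**Figure D4:**
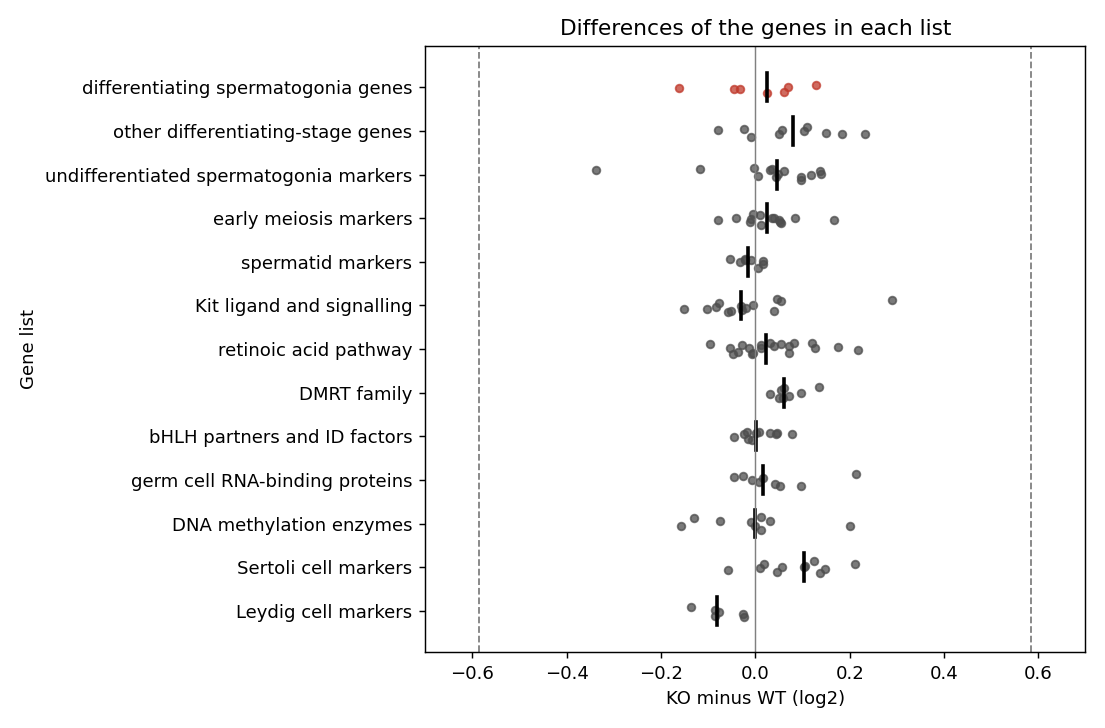
The horizontal axis gives KO minus WT on the log2 scale for 13 of the lists, without those of mast cells and macrophages, with a point per gene, black bars for medians and dashed lines at a fold of 1.5, and with the 7 differentiating spermatogonia genes in red. All points lie between the dashed lines, from Pou5f1 at -0.34 to Grb7 at 0.29, and 5 genes stand in more than 1 list.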

How the data were processed

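RNA of whole testes from Azin2 KO and WT mice was measured on Affymetrix Mouse Gene 1.1 ST arrays, 2 per genotype. The authors deposited 1 log2 signal for each probe set, made with RMA, which corrects background, normalizes arrays and summarizes probes, and which can shrink small differences. The submitters' processing notes name Partek 6.13.1224. The genome build, annotation version and summary level are not given in the sources used here. The log2 scale was taken from the RMA note and the range of the values, and could not be set against scanner files.

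Of 35556 probe sets, the platform annotation pairs 21219 with 1 gene and 1880 with several, and 12457 are unnamed here, with symbols updated by gene identifier. For a gene with several, the probe set with the highest mean was taken. KO was compared with WT with limma 3.58.1 in R 4.3.3 (lmFit and eBayes, prior of 2.96 degrees of freedom), with Benjamini-Hochberg adjustment over 23099 probe sets, and the code was tested on simulated data. Levels of different probe sets were not ranked, as probes differ in affinity, and the number of arrays limits precision. The genes, the lists and the tests were chosen with earlier results of these data known. Named from each list were the genes with the largest difference each way (2 each way in lists of 10 or more measured genes) and, with their values already known, Ddx4, Rarg, Aldh1a2, Cyp26b1, Dmrtb1, Boll, Dnmt3a and Gfra1. The genes with the 3 nearest profiles were named too. Promoters are from RefSeq. The alternatives were other moderation, normalization, filters, probe sets and thresholds, a replicate block, and each array left out. Figures were drawn with matplotlib 3.10.9.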

Additional observations from a re-analysis of the deposited data

How the results depend on the processing

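None of the 7 genes was called at an adjusted p under 0.05 under any of the 13 alternatives, and none passed a fold of 1.5 with an unadjusted p under 0.05. With all arrays, none passed a fold of 1.2 at that p either. Fits under the 13 alternatives, among them those with an array left out, were not counted at this lower fold for the 7 genes. Their smallest adjusted p under any setting was 0.920. The correlation of the deviations of same-numbered pools was -0.0818 and the numbers were not taken to pair the samples. With the replicate number as a block, 0 of the 7 genes were called and the median difference of the 7 genes was still 0.026. That median was 0.038 after quantile normalization and 0.035 with centred arrays, and ranged from -0.031 to 0.11 when each array was left out (0.11 without KO replicate 2), with the lone array assumed to vary like the other genotype. Leaving out arrays turned the sign of 4 of them, with ranges of -0.46 to 0.14 for Kit, -0.19 to 0.13 for Stra8, -0.031 to 0.083 for Sohlh1 and -0.035 to 0.15 for Sohlh2. It also turned Bcl6b (-0.25 to 0.013), Clu (-0.058 to 0.079), Cx3cr1 (-0.17 to 0.30), Cyp17a1 (-0.063 to 0.013), Dab2ip (-0.018 to 0.044), Dmrt2 (-0.055 to 0.33), Hsd3b1 (-0.48 to 0.21), Mki67 (-0.057 to 0.010), Nanos3 (-0.12 to 0.026), Pfdn1 (-0.032 to 0.036), Rec8 (-0.086 to 0.0045), Spag1 (-0.035 to 0.036) and Stra6 (-0.0066 to 0.36). Quantile normalization turned Pfdn1 to -0.0095. The count of other listed genes past both the fold of 1.5 and an unadjusted p of 0.05 ranged from 0 to 1, the 1 being Lyz2 when either KO replicate 2 or WT replicate 1 was left out, and 0 were called at an adjusted p under 0.05 in any setting. The adjusted p of Azin2, at log2 differences from -2.94 to -2.72, rose above 0.05 by the ordinary test (0.868), with every probe set of the table (0.0707), and without WT replicate 1 (0.294) or WT replicate 2 (0.232), from limma in the last 3. The cause was not tested, beyond the removal of the array itself. With 2 pools a genotype, the intervals above give the range of differences compatible with the arrays, gene by gene, and are widest for Kit. They are not limits of detection, as calls were made after adjustment over all probe sets tested. Azin2, at a log2 difference of -2.83 with all arrays, had an adjusted p of 0.0250 from limma. Much smaller differences could therefore go uncalled.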
